A study of Mus musculus with 9 samples.

Results

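The genes described here are 30 genes of cholesterol and lipid synthesis, chosen by their roles in the sterol pathway, in its control by SREBP (sterol regulatory element-binding protein), in fatty acid synthesis and in sterol efflux. In the table of 37980 mouse genes, 29 of the 30 were found by Ensembl identifier and 28 had enough counts to be tested. Hmgcs1, the cytosolic HMG-CoA synthase, could not be matched to an identifier in the table and has no value here. Scd1 was found but was too low for the test.

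RNA-seq was performed on myeloid progenitors (MPs), which were sorted from bone marrow as lineage-negative, c-kit-positive and Sca1-negative cells, with 100000 cells in a sample. NA MPs (4 samples) were the Tdtomato+ progeny of transplanted multipotent progenitors (MPPs) that carried NA, the Nup98-Hoxa10hd fusion gene, and WT MPs (5 samples) were CD45.2+ cells from mice that had received WT MPPs. The strain was C57BL/6, and in NA mice the fusion was expressed from the Rosa26 locus after removal of a stop cassette by Vav-Cre, which acts in blood cells. All recipients had been irradiated and had also received helper cells from bone marrow. The labels give 3 months after transplantation for both groups, and the study's methods give a later month. The study elsewhere followed WT donor cells as CD45.1+ in CD45.2+ recipients, so whether the CD45.2+ WT MPs came from the donor, the helper cells or the recipient cannot be told apart. The age of the mice at sorting, and whether a sample came from 1 mouse or several, are not given in the sources used here, so p-values measure the spread between these samples.

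Cells make cholesterol from acetyl-CoA. The mevalonate steps lead to farnesyl diphosphate, squalene epoxidase and lanosterol synthase close the sterol rings, and a further series of enzymes turns lanosterol into cholesterol. When sterol in the endoplasmic reticulum is low, SCAP escorts SREBP to the Golgi, where cleavage frees a transcription factor for these genes, whereas INSIG proteins hold SCAP back when sterol is plentiful. Oxysterols activate the nuclear receptor LXR, which drives the efflux pumps ABCA1 and ABCG1. In bone marrow, sterol efflux through these pumps is known for restraining the proliferation of stem and progenitor cells.

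The promoter sequences below belong to the 4 members past the threshold for which a RefSeq promoter window was at hand, and show the DNA in front of an efflux gene, of 2 genes of SREBP control and of a late sterol enzyme. Each runs 5′ to 3′ from 250 bases before to 50 bases after the RefSeq start (GRCm38.p6), so that the start is base 251. Capitals mark matches on either strand to the NF-Y box CCAAT, the GC box GGGCGG and the E-box CACGTG. The sterol regulatory element TCACNCCAC was searched too and was in none of the 4 windows.

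Abca1 (chr4:53159846-53160145, minus strand): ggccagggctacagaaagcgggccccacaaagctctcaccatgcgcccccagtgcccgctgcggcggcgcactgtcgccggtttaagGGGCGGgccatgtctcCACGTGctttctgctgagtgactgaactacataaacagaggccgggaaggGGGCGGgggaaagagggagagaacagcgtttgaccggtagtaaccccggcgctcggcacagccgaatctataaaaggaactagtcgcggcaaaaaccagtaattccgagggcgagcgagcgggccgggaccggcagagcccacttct
Insig1 (chr5:28071162-28071461, plus strand): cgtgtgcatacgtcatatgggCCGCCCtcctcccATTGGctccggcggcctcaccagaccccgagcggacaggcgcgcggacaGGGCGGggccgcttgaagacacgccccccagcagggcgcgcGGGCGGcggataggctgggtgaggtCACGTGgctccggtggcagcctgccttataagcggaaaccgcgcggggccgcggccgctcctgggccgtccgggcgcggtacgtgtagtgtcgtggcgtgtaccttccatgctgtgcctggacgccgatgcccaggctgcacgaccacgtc
Srebf2 (chr15:82147019-82147318, plus strand): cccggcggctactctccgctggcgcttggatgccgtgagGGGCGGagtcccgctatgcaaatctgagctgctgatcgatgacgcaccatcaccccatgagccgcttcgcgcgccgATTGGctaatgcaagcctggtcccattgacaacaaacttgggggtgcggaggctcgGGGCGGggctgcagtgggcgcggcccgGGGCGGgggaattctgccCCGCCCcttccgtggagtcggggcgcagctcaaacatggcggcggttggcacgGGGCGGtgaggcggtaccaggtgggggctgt
Sc5d (chr9:42264251-42264550, minus strand): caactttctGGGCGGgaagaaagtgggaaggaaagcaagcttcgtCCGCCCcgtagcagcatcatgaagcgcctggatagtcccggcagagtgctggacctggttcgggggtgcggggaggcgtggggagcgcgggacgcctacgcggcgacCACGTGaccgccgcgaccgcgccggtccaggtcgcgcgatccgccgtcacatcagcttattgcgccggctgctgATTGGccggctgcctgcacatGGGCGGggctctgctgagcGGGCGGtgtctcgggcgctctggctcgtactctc

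The E-box was in the Abca1, Insig1 and Sc5d windows and not in that of Srebf2. The Srebf2 window held 5 GC boxes and 1 NF-Y box, and the Abca1 window held 2 GC boxes and no NF-Y box. Over the 32 windows of the 23 members with any, 75.0% held a GC box, 62.5% an NF-Y box, 21.9% an E-box and 3.12% the sterol regulatory element. Over all 32851 windows of the same length the shares were 35.7%, 37.4%, 7.15% and 1.24%. The E-box windows belonged to 6 genes, of which Abca1 and Insig1 were higher in NA MPs, Sc5d was lower, and Dhcr7, Hsd17b7 and Scap did not pass the test. The sterol regulatory element was found in the window of Hmgcs1 only. A match describes these letters and is not evidence of a bound site. Only the exact letters were searched, so a missing match is not evidence that a window lacks such an element.

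The 9 libraries held from 5557718 to 8106140 counts each, and values are given as CPM, which are counts scaled to 1 common library size after TMM normalization between samples. A count of 3 corresponded to between 0.370 and 0.540 CPM. The genes after which the fusion is named were higher in NA MPs, with Hoxa10 at 17.5 to 23.4 CPM against 0.840 to 1.80 CPM in WT MPs and Nup98 at 127 to 155 against 85.1 to 94.3 CPM. Whether these counts came from the fusion or from the endogenous genes was not tested. Kit, which encodes the sorted c-kit, was at 447 ± 20.3 CPM (SD, n = 4) and 456 ± 6.39 CPM (SD, n = 5), and Ly6a, which encodes Sca1, was at 3.22 ± 0.424 and 2.74 ± 0.777 CPM. NA MP replicate 1 stood apart from the other NA MPs on the second principal component. Across the transcriptome, 4078 of 11953 tested genes differed between the groups at an adjusted p under 0.05 (quasi-likelihood test of edgeR, Benjamini-Hochberg adjustment over all tested genes), which is 34.1% of them, with 17.9% higher and 16.3% lower in NA MPs.

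The sorted cells also differed in the markers of other lineages. All 13 tested B-lymphoid progenitor genes were higher, with a summed level of 232 to 413 CPM in NA MPs against 58.9 to 64.5 CPM, and 12 of 13 erythroid genes were lower, at 940 to 1197 against 1761 to 1945 CPM. Macrophage and monocyte genes were higher for 8 and lower for 2 of 11 tested, at 1176 to 1290 against 1023 to 1122 CPM. Of the mast cell and basophil genes, 6 were higher and 1 was lower of 8, at 756 to 877 against 571 to 603 CPM. Of the late neutrophil genes, 4 were higher and 1 was lower of 8, at 530 to 825 against 431 to 511 CPM, and of the megakaryocyte genes 1 was higher and 2 were lower of 7. Proliferation genes were lower for 8 of 15, at 3448 to 3723 against 3997 to 4096 CPM, and immediate early genes were higher for 14 of 15, at 2100 to 4602 against 467 to 974 CPM. Of 10 genes of the gate and of myeloid progenitor identity, 5 were higher and 2 were lower, at 25215 to 27586 against 24625 to 25594 CPM. Of the 7 T cell markers, 3 were at 0 in every sample, and the sums were 6.88 to 9.98 CPM in NA MPs against 1.67 to 2.80 CPM. Lck, the only one tested, was higher, at 7.87 against 1.65 CPM (log2 fold change 2.27, edgeR adjusted p = 1.29e-13). These lists differed between the same groups as the genes described below, and their part in those differences was not tested. In bulk samples, fewer cells of a type and less RNA per cell cannot be told apart.

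Of the 28 tested sterol and lipid genes, 7 passed the test and 21 did not. The 4 that were higher were Abca1 and Abcg1, for sterol efflux, and Srebf2 and Insig1, for SREBP control, and the 3 that were lower were Sqle and Sc5d, for sterol synthesis, and Stard4, for sterol transport. With DESeq2, Abcg1, Insig1 and Stard4 no longer passed. The 7 calls among 28 tested members are 25%, beside the 34.1% of all genes. The 4 higher members are beside 17.9% of all genes that were higher, and the 3 lower beside 16.3%. The median log2 fold change of the members was -0.015, beside -0.001 over all tested genes, and the members ranged from -0.33 to 1.17. The values of the groups did not overlap for 5 members, or 17.9% of the 28, beside 26.4% of all genes. The precision was high for most of them, as the 95% interval of the difference lay within 1.5-fold in either direction for 26 of 28.

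**Figure D1:**
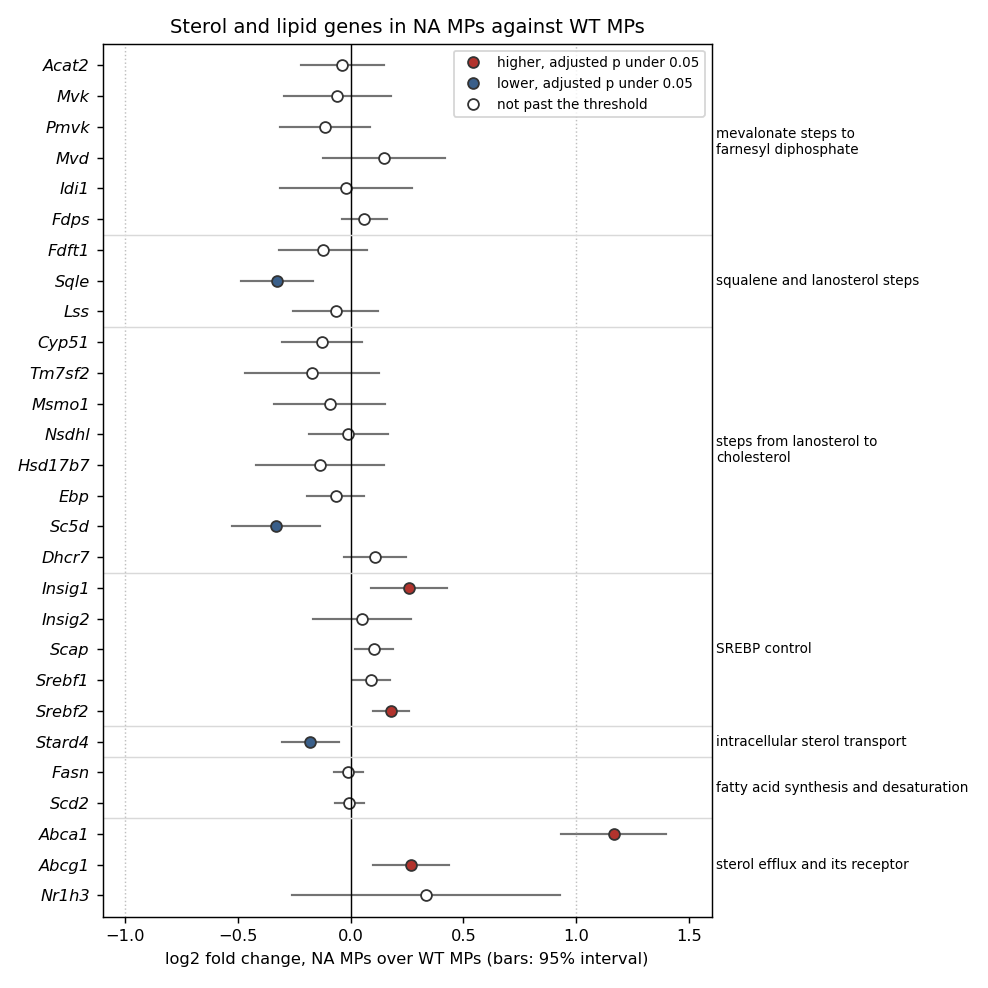
Log2 fold change (NA MPs over WT MPs, horizontal axis) of the 28 tested members, ordered by role, with 95% intervals from edgeR's quasi-likelihood fit; filled points passed an adjusted p of 0.05 and dotted lines mark a log2 change of 1 in either direction. Abca1, at 1.17, stands apart from the other 27, which lie between -0.33 and 0.34.

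Abca1 showed the largest change among the members. It encodes the pump that loads cholesterol onto lipid-poor apolipoprotein particles. Abca1 was at 23.4, 19.4, 17.3 and 17.5 CPM in NA MPs and at 10.4, 6.94, 7.96, 7.96 and 9.80 CPM in WT MPs. The lowest NA MP sample was thus above the highest WT MP sample. The level was 2.24-fold higher in NA MPs (95% interval 1.91 to 2.64), a log2 fold change of 1.17 ± 0.12 (SE; edgeR adjusted p = 5.42e-12). Per kilobase of exon, Abca1 had been among the lowest members in WT MPs at 0.831 CPM and reached 1.87 CPM in NA MPs.

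Abcg1, whose product moves sterol to mature high-density lipoprotein, was also higher, by a smaller amount. Its values were 24.5, 24.7, 21.9 and 21.7 CPM in NA MPs against 20.3, 18.0, 17.9, 19.8 and 20.2 CPM in WT MPs, and the groups did not overlap. The log2 fold change was 0.27 ± 0.084 (SE; edgeR adjusted p = 0.0109), and the call was lost with DESeq2 (adjusted p = 0.0886). Nr1h3, which encodes LXRα, was low in all samples, at 1.93 ± 0.292 CPM in NA MPs and 1.54 ± 0.452 CPM in WT MPs (SD). Its log2 fold change was 0.34 ± 0.30 (SE; edgeR adjusted p = 0.414), and its 95% interval reached from 83.5% to 190.5% of the WT MP level, so its direction was not resolved at this depth. Nr1h2, a related gene that encodes the other LXR form, LXRβ, was at 111 ± 9.27 CPM in NA MPs and 94.7 ± 3.86 CPM in WT MPs (SD). The Nr1h2 groups did not overlap, and the log2 fold change was 0.23 ± 0.046 (SE; edgeR adjusted p = 9.29e-05). Macrophages are known for high ABCA1 and ABCG1 levels, and several of their markers were higher in NA MPs: C1qa 5.42-fold, C1qb 4.12-fold, C1qc 5.82-fold, Mrc1 4.58-fold, Cd68 1.97-fold, Cd163 1.79-fold and Adgre1 1.48-fold. Csf1r did not pass, at 1.06-fold, Ly6c2 was 1.18-fold higher, and Ccr2 and Vcam1 were lower. The part of these cells in the Abca1 and Abcg1 values was not tested.

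Of the 5 genes of SREBP control, Srebf2 and Insig1 passed the test, or 40% beside 34.1% of all genes. All 5 had a log2 fold change above 0, as had 49.8% of all tested genes. Srebf2 encodes the SREBP form that mainly serves cholesterol synthesis. It was at 153, 146, 135 and 137 CPM in NA MPs and at 123, 129, 127, 128 and 121 CPM in WT MPs. No NA MP sample was as low as the highest WT MP sample, and the log2 fold change was 0.18 ± 0.040 (SE; edgeR adjusted p = 0.000325). With a correction for GC content and exon length and the replicate number as a block, it was 0.10 (edgeR adjusted p = 0.0568). That fit left out WT MP replicate 5. Insig1, which encodes the sterol-sensing retention protein and is itself a target of SREBP, was at 23.0, 25, 27.4 and 31.3 CPM in NA MPs. In WT MPs Insig1 was at 24.5, 22.7, 23.7, 21.3 and 20.6 CPM, so that NA MP replicate 1 lay within the WT MP range. The log2 fold change was 0.26 ± 0.084 (SE; edgeR adjusted p = 0.0129). Without NA MP replicate 4 it was 0.16 (adjusted p = 0.178), and with DESeq2 the adjusted p was 0.108.

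The other 3 genes of SREBP control did not pass. Srebf1, which gives the SREBP forms that favour fatty acid genes, was at 118 ± 5.13 CPM in NA MPs and 111 ± 2.32 CPM in WT MPs (SD; log2 fold change 0.091, edgeR adjusted p = 0.0795). Scap, the escort of SREBP, was at 125 ± 8.03 and 116 ± 3.37 CPM (SD; log2 fold change 0.10, edgeR adjusted p = 0.0514). NA MP replicate 1 held the lowest NA MP value of Scap at 112 CPM against 128 to 129 CPM in the other 3 samples, and without it the log2 fold change was 0.14 (edgeR adjusted p = 0.00523). Scap also passed without WT MP replicate 3 (edgeR adjusted p = 0.0374), and Srebf1 without NA MP replicate 4 (edgeR adjusted p = 0.0446). With at least 10 counts required in every sample, Scap passed too (log2 fold change 0.106, edgeR adjusted p = 0.0437). Some other alternatives gave smaller differences. Over all 22, the log2 fold change ranged from 0.0234 to 0.144 for Scap and from 0.0164 to 0.114 for Srebf1. Insig2, the INSIG form whose transcript depends less on SREBP, was at 13.8 ± 0.724 and 13.2 ± 1.67 CPM (SD; log2 fold change 0.051, edgeR adjusted p = 0.761). Within a sample, the log2 ratio of Insig1 to Insig2 was 0.94 ± 0.263 in NA MPs and 0.77 ± 0.116 in WT MPs (SD). These ratios did not differ beyond the spread between samples (two-sided exact permutation test, p = 0.254, adjusted over 3 ratios 0.254). The log2 ratio of Srebf1 to Srebf2 was -0.27 ± 0.101 and -0.19 ± 0.0515, and its exact permutation p was 0.127 (adjusted 0.190).

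**Figure D2:**
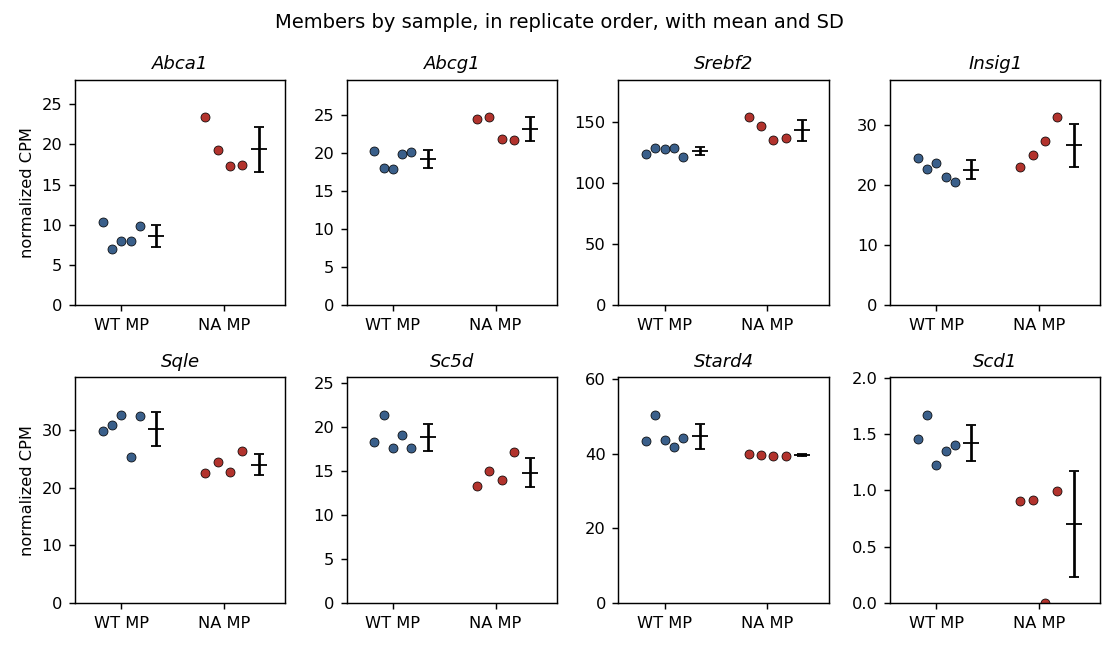
Normalized CPM (vertical axes, from 0) of the 7 members past the threshold and of Scd1 in each sample, with points in replicate order and the mean ± SD to their right. The 2 groups do not overlap for Abca1, Abcg1, Srebf2, Sc5d, Stard4 and Scd1, and overlap for Insig1 and Sqle.

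The enzymes that build cholesterol differed little. Of the 17 measured enzymes from Acat2 to Dhcr7, 2 were lower and none was higher, so that 11.8% passed beside 34.1% of all genes. For 3 of the 17 the log2 fold change was above 0, beside 49.8% of all tested genes, and for 14 it was below 0. The median log2 fold change was -0.067, and for all 17 the 95% interval lay within 1.5-fold. Summed over the enzymes, the level was 346.6 ± 8.65 CPM in NA MPs and 361.1 ± 6.77 CPM in WT MPs (SD). The NA MP sum was 96.0% of the WT MP sum, and 3 of 4 NA MP samples lay below the lowest WT MP sample.

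The 6 measured genes of the mevalonate steps showed no call in either direction. Acat2 condenses acetyl-CoA units, Mvk and Pmvk phosphorylate mevalonate, Mvd makes isopentenyl diphosphate, Idi1 isomerises it and Fdps joins the units into farnesyl diphosphate. Their log2 fold changes were -0.038 for Acat2, -0.059 for Mvk, -0.11 for Pmvk, 0.15 for Mvd, -0.019 for Idi1 and 0.061 for Fdps. The lowest edgeR adjusted p among them was 0.374, for Fdps. Fdps, the highest of these steps per kilobase of exon, was at 71.0 ± 3.02 CPM in NA MPs and 68.0 ± 2.83 CPM in WT MPs (SD).

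Of the genes that form squalene and lanosterol, Sqle was lower in NA MPs. It encodes squalene epoxidase, a rate-limiting enzyme of the pathway whose transcript is a known SREBP target. Sqle was at 22.5, 24.4, 22.7 and 26.3 CPM in NA MPs against 29.8, 30.8, 32.6, 25.2 and 32.5 CPM in WT MPs. WT MP replicate 4 was below the highest NA MP sample, and the other 4 WT MP samples were above all NA MP samples. The log2 fold change was -0.32 ± 0.080 (SE; edgeR adjusted p = 0.000994), or 79.8% of the WT MP level. Its neighbours Fdft1, squalene synthase, and Lss, lanosterol synthase, had log2 fold changes of -0.12 and -0.067 (edgeR adjusted p = 0.357 and 0.631).

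In the steps from lanosterol to cholesterol, 1 of 8 genes passed. Sc5d, the sterol C5-desaturase near the end of the pathway, was at 13.2, 14.9, 14.0 and 17.1 CPM in NA MPs. In WT MPs Sc5d was at 18.3, 21.3, 17.6, 19.1 and 17.6 CPM, so that the highest NA MP value was below the lowest WT MP value. The log2 fold change was -0.33 ± 0.097 (SE; edgeR adjusted p = 0.00574), or 79.4% of the WT MP level. Cyp51, which removes the C14 methyl group of lanosterol, had a log2 fold change of -0.13, and Tm7sf2, a sterol C14-reductase, of -0.17. Msmo1, Nsdhl and Hsd17b7, which act in the removal of the C4 methyl groups, had log2 fold changes of -0.094, -0.010 and -0.14. Ebp, the sterol isomerase, was at -0.067, and Dhcr7, whose enzyme makes cholesterol from 7-dehydrocholesterol, was the only gene of these steps above 0, at 0.11. The lowest edgeR adjusted p among these 7 was 0.231, for Dhcr7. Tm7sf2 was uneven in NA MPs, with replicate 1 at 4.71 CPM and the other 3 samples at 8.38 to 9.11 CPM.

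**Figure D3:**
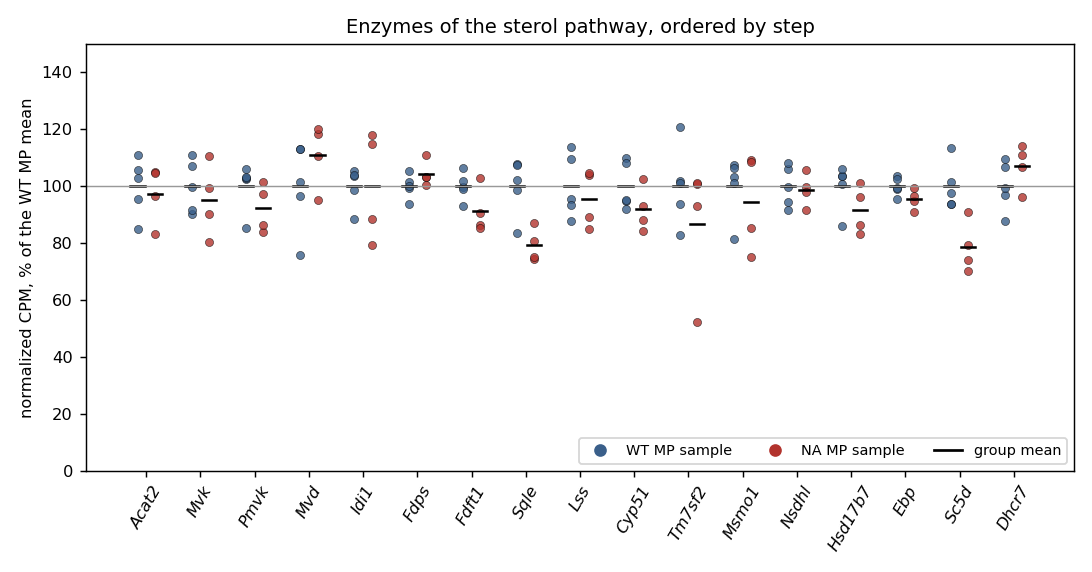
Level of each measured enzyme of the sterol pathway in every sample, as a percentage of its WT MP mean (vertical axis, from 0), ordered by step from Acat2 to Dhcr7; short black lines are group means. Sqle and Sc5d lie lowest by group mean in NA MPs, and the samples of both groups overlap for every enzyme except Sc5d.

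Stard4, which encodes a protein that carries sterol between membranes in the cytosol, was lower in NA MPs. It was at 39.9, 39.8, 39.5 and 39.3 CPM in NA MPs, against 43.4, 50.4, 43.8, 41.8 and 44.1 CPM in WT MPs. The groups did not overlap, and the log2 fold change was -0.18 ± 0.063 (SE; edgeR adjusted p = 0.0233). The call was lost with DESeq2 (adjusted p = 0.106), without WT MP replicate 2 (0.13) and without NA MP replicate 4 (0.0512).

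Fasn and Scd2 held the highest levels per kilobase of exon among the members, and their differences had the narrowest intervals. Scd2, the main stearoyl-CoA desaturase form here, was the highest member per kilobase of exon in WT MPs at 41.4 CPM, followed by Fasn, fatty acid synthase, at 27.4 CPM. Fasn was at 298 ± 11.4 CPM in NA MPs and 300.3 ± 7.47 CPM in WT MPs (SD), and its NA MP level was 99.3% of the WT MP level (95% interval 95.1% to 103.7%). Scd2 was at 225 ± 4.46 and 226 ± 3.69 CPM, or 99.6% (95% interval 95.3% to 104.1%). Neither passed the test (edgeR adjusted p = 0.840 and 0.911), and both intervals stayed within 5% of the WT MP level.

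Scd1, the second desaturase form, was close to the limit of detection in every sample. It had 5, 6, 0 and 8 counts in NA MPs and 9, 13, 8, 9 and 10 counts in WT MPs, or 0 to 0.998 CPM against 1.22 to 1.67 CPM. All NA MP samples were below all WT MP samples, with 19 counts in all against 49. The log2 ratio of Scd1 to Scd2 within a sample, with 0.5 added to each count, was -8.69 ± 1.78 in NA MPs and -7.25 ± 0.149 in WT MPs (SD), a difference of -1.44. The two-sided exact permutation p was 0.0159, the smallest that 4 samples against 5 allow, and 0.0476 after adjustment over the 3 ratios. The size of the difference rested on NA MP replicate 3, which had no count, and was -0.558 without it. The size also depended on the added count, and was -0.925 with 2 added in place of 0.5. The proteins and transcripts of Scd1 and Scd2 are alike, and how the estimated counts split shared reads could change both values.

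Levels between genes were compared per kilobase of exon in WT MPs. The length counted every base in any annotated exon of a gene, which can exceed the length of a single transcript. Scd2 and Fasn were followed by Srebf1 at 19.6, Srebf2 at 17.5, Ebp at 17.4, Fdps at 16.2 and Scap at 15.6 CPM. The bottom of the order was Abca1 at 0.831, Nr1h3 at 0.613 and Scd1 at 0.291 CPM. The remaining 19 measured members lay between 1.47 CPM, for Hsd17b7, and 9.33 CPM, for Pmvk.

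The related genes of lipid metabolism, 76 in 5 lists, showed where further differences lay. These lists were chosen by role but with earlier results of these data known, so their shares beside all genes are descriptive only. Of 73 tested, 13 were higher and 19 were lower, so that 43.8% passed beside 34.1% of all genes. In the list of LXR partners and targets, 6 of 11 tested genes were higher and 2 were lower, so that 72.7% passed beside 34.1% of all genes, and the median log2 fold change was 0.095. The higher genes were the receptor genes Nr1h2, Rxra and Rxrb, and also Mylip, Arl4c and Cyp27a1. The share thus covers receptors as well as targets, and a rise of LXR targets as a set was not tested. Arl4c, a small GTPase linked to sterol transport, was at 11.4, 12.0, 18.8 and 14.8 CPM in NA MPs against 8.11, 9.38, 6.89, 10.1 and 8.68 CPM in WT MPs, with no overlap (log2 fold change 0.72 ± 0.13, SE; edgeR adjusted p = 1.97e-05). Cyp27a1, which makes the LXR ligand 27-hydroxycholesterol, was at 4.73 to 5.21 CPM in NA MPs and 2.14 to 4.38 CPM in WT MPs (log2 fold change 0.56 ± 0.20, SE; edgeR adjusted p = 0.0213). The Cyp27a1 call was lost without NA MP replicate 3, WT MP replicate 3 or WT MP replicate 4 (edgeR adjusted p = 0.0505, 0.0838 and 0.053). It was also lost with DESeq2 (adjusted p = 0.121). Among the fallers were Lpcat3, a phospholipid remodelling enzyme, with a log2 fold change of -0.19 (edgeR adjusted p = 0.00381), and Nampt, an enzyme of NAD synthesis, with -0.17 (edgeR adjusted p = 0.00163).

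In the list of sterol uptake, storage and movement, 4 of 16 genes were higher and 2 were lower, so that 37.5% passed beside 34.1% of all genes. Vldlr, a lipoprotein receptor, was at 16.7, 12.2, 12.9 and 11.0 CPM in NA MPs and at 2.59, 1.93, 1.99, 3.01 and 3.64 CPM in WT MPs. Its groups were far apart, and its log2 fold change of 2.30 ± 0.17 (SE; edgeR adjusted p = 1.68e-16) was larger than that of any member. Osbpl5, a lipid exchanger of the oxysterol-binding family, was at 20.5 to 23.4 CPM in NA MPs and 11.9 to 13.4 CPM in WT MPs (log2 fold change 0.79 ± 0.093, SE; edgeR adjusted p = 8.2e-10). Soat1, which esterifies cholesterol for storage, and Nceh1, which hydrolyses such esters, were both lower, with log2 fold changes of -0.28 and -0.29 (edgeR adjusted p = 2.22e-05 and 0.00185).

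Among other genes of fatty acid synthesis, elongation and desaturation, 1 of 20 tested was higher and 8 were lower, so that 45% passed beside 34.1% of all genes. Fads2, the first desaturase of polyunsaturated fatty acid synthesis, was at 20.7, 18.1, 22.9 and 18.1 CPM in NA MPs against 26.7, 32.9, 34.1, 35.3 and 29.4 CPM in WT MPs, with no overlap (log2 fold change -0.68 ± 0.086, SE; edgeR adjusted p = 5.26e-09). Fads3, a neighbouring family member, was at 3.08 to 5.99 CPM in NA MPs and 8.42 to 9.89 CPM in WT MPs (log2 fold change -0.98 ± 0.16, SE; edgeR adjusted p = 1.49e-06). Elovl6, which lengthens palmitate, was the only gene of the list that was higher past the threshold, at 42.5 ± 1.46 against 34.6 ± 3.27 CPM (SD; log2 fold change 0.29, edgeR adjusted p = 0.000545).

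In the list of SREBP cleavage, retention and sterol-driven degradation, 1 of 12 genes was higher and 2 were lower, so that 25% passed beside 34.1% of all genes. Pgrmc1, a haem-binding membrane protein, had a log2 fold change of 0.26 (edgeR adjusted p = 1.5e-05), and the ubiquitin ligase genes Rnf139 and Rnf145 had -0.20 and -0.15 (edgeR adjusted p = 0.00446 and 0.0141). In the isoprenoid branch, which draws on farnesyl diphosphate to make prenyl groups and ubiquinone, 1 of 14 genes was higher and 5 were lower, so that 42.9% passed beside the same 34.1%. Rabggta, a subunit of the enzyme that prenylates Rab proteins, had a log2 fold change of 0.20 (edgeR adjusted p = 0.0254). Pdss1, for the ubiquinone side chain, had -0.24 and Fntb, a farnesyltransferase subunit, had -0.22 (edgeR adjusted p = 0.037 and 0.0343). The Rnf145 call was lost without NA MP replicate 3 (edgeR adjusted p = 0.0562), with DESeq2 (0.0588) and with the GC and length correction (0.0931), and the Rnf139 call with that correction and the replicate block together (0.0598). Each of the 3 isoprenoid calls was lost when any of several single samples was left out: Rabggta without NA MP replicate 4 or WT MP replicate 2, 3 or 5 (edgeR adjusted p up to 0.10), Pdss1 without replicate 2 or 3 of either group (up to 0.153), and Fntb without NA MP replicate 2, 3 or 4 or WT MP replicate 3 or 4 (up to 0.177). With DESeq2 the same 3 calls were lost too (adjusted p = 0.149 for Rabggta, 0.15 for Pdss1 and 0.146 for Fntb). Rabggta and Pdss1 also missed the threshold with the GC and length correction (edgeR adjusted p = 0.085 and 0.0901), and Rabggta with the replicate block (0.0926). Me1, Pltp and Ch25h were too low to be tested.

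**Figure D4:**
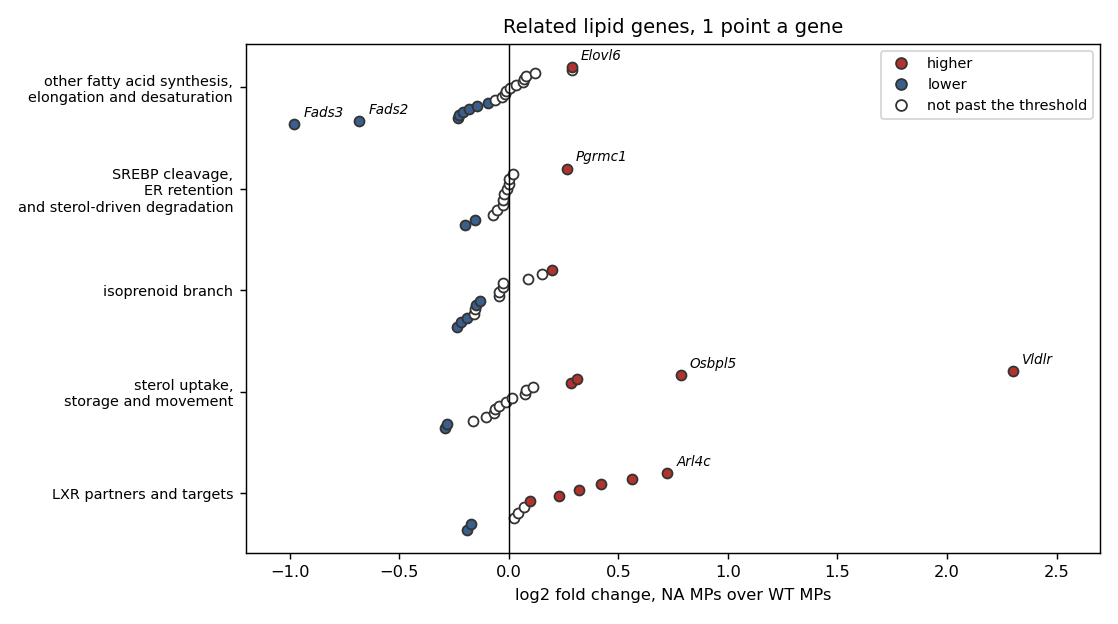
Log2 fold change (NA MPs over WT MPs, horizontal axis) of the 73 tested related genes in 5 lists, 1 point a gene, filled where the adjusted p was under 0.05 and spread vertically within a list only to separate points. Vldlr (2.30), Osbpl5 (0.79) and Arl4c (0.72) lie farthest to the right, and Fads3 (-0.98) and Fads2 (-0.68) farthest to the left.

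The exons of 10 members overlap those of another gene in GENCODE M21 (GRCm38), and the sources used here do not say whether strand was used in counting. These values are uncertain in that respect: Idi1, Fdps, Fdft1, Lss, Cyp51, Tm7sf2, Scap, Srebf1, Scd2 and Nr1h3. None of the 7 members past the threshold is among them. Of the related genes named above as past the threshold, Rnf139, Lpcat3, Fntb, Pdss1 and Elovl6 have such overlaps, and their values share this uncertainty.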

How the data were processed

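MPs were sequenced from poly(A) RNA in 9 samples (4 NA MP and 5 WT MP). Per the labels, the authors used bcl2fastq, RSEM and DESeq2 with the mm10 build, with versions and annotation not given in the sources used here. The deposited file, named as raw, held RSEM expected counts that the authors had divided by a size factor per sample: in each column 95.9% to 97.5% of values were whole multiples, within 0.005 reads, of a step of 0.827 to 1.20. Expected counts were recovered by dividing by that step and rounded to whole numbers; the design had assumed undivided values. Depth was 5557718 to 8106140 counts per sample, which sets the precision, and intervals given cover the spread between samples.

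Symbols were matched for 32916 genes. Exon lengths and overlaps came from GENCODE M21, which lacks 5045 of the table's identifiers, and promoters from RefSeq. In R 4.3.3, edgeR 4.0.16 was run with TMM and filterByExpr (minimum count 10); its quasi-likelihood test was robust, p-values were adjusted after Benjamini and Hochberg over 11953 genes, and the threshold was 0.05. Ratios within a sample were compared by exact permutation tests. The script was tested on simulated data. The members and lists were chosen with earlier results of these data known. All members are named, and of each related list the 2 largest rises and falls past the threshold, with the other higher genes of the LXR list. Some genes of the pathway are not reported here. Replicates did not differ by less than sampling noise in any pair (chi-square per degree of freedom 1.20 to 2.84). Alternatives were RLE or library size normalization, DESeq2 1.42.0, no filter or a stricter one, no robust option, a threshold of 0.01, unrounded counts, the replicate number as a block, leaving out each sample and, for ratios, another pseudocount. Chosen after seeing the data were the deposited values as such, limma 3.58.1 on log2 of them plus 1, and offsets for GC content and exon length.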

Additional observations from a re-analysis of the deposited data

Results flagged for a closer look

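In 9 of 98 groups of values, 1 sample lay farther from the others than Dixon's 95% criterion allows, where chance gives about 4.9. In WT MPs, replicate 3 was low for Pmvk, at 13.6 CPM against 16.4 to 17.0 CPM, and for Msmo1, at 9.34 CPM against 11.6 to 12.3 CPM. WT MP replicate 4 was low for Hsd17b7, at 6.46 CPM against 7.58 to 7.98 CPM, and WT MP replicate 2 was high for Stard4, at 50.4 CPM against 41.8 to 44.1 CPM. In NA MPs, replicate 1 was low for Tm7sf2, at 4.71 CPM against 8.38 to 9.11 CPM, and for Scap, at 112 CPM against 128 to 129 CPM. NA MP replicate 3 was high for Nampt, at 96.0 CPM against 85.5 to 87.1 CPM. The same sample had 0 CPM of Scd1 against 0.906 to 0.998 CPM, and its log2 ratio of Scd1 to Scd2 was -11.4 against -7.86 to -7.72.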

How the results depend on the processing

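Of the 7 members past the threshold, Abca1, Sqle and Sc5d passed under all 22 alternatives, and no member past the threshold changed direction. The number of members that differed was 4 with DESeq2 and 4 at an adjusted p under 0.01, against 7, with 2 higher under each, against 4. Of the related genes, 18 differed under each of these, against 32, with 8 higher, against 13, and 10 lower, against 19. Over all genes, DESeq2 called 3040 and the 0.01 threshold 2886, against 4078. Srebf2 missed the threshold only with the replicate block and the GC and length correction together (0.10, adjusted p = 0.0568), and Stard4 missed it with that correction alone (0.0825). With scaling by library size only, 44.7% of called genes were higher, against 52.3%, and the median of all genes shifted by -0.0209. The replicate numbers did not pair the samples, as the correlations of same-numbered deviations were 0.0093, 0.0103, -0.0141 and 0.0574. The replicate block called 3724 genes, and leaving out WT MP replicate 5 with no block called 3711.

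Of the 21 members not past the threshold, 8 changed sign under some alternative, without passing. Nsdhl and Insig2 were at 0.0191 and -0.00127 with the replicate block, which left out WT MP replicate 5. Without that sample and with no block they were at 0.0198 and -0.00963. Idi1, Nsdhl and Scd2 were at 0.0135, 0.00453 and 0.00394 with the GC and length correction, and at 0.0275, 0.0331 and 0.00811 with that correction and the replicate block. Leaving out 1 sample gave ranges of -0.0496 to 0.0209 for Nsdhl, -0.0897 to 0.0329 for Acat2, -0.109 to 0.0949 for Idi1, -0.155 to 0.01 for Mvk, -0.0368 to 0.00425 for Fasn, -0.0166 to 0.005 for Scd2, -0.176 to 0.0221 for Msmo1 and -0.00963 to 0.103 for Insig2. The cause was not tested. The ratio of Scd1 to Scd2 has no value without a pseudocount, since 1 sample had no count. Depth limits Scd1 and Nr1h3.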
